A study of Mus musculus with 6 samples.

Results

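The glycosyltransferases and sulfotransferases that build glycans were followed in the whole cornea of mice with an experimental dry eye. They were chosen by gene symbol, as all genes named Galnt, B3gnt, B3gal, B4gal, C1gal, Gcnt, St3gal, St6gal, St8sia, Fut, Chst or Mgat, and this gave 97 of the 17794 genes in the deposited table. The rule itself uses symbols and no measured value. Its final point was read as punctuation; read as a wildcard for a further character it gives 84 genes. The dry eye was induced with benzalkonium chloride, a detergent preservative, in all animals, vehicle group included, and was followed by 10 days of treatment. The vehicle group (3 libraries) received vehicle, and the luteolin group (3 libraries) received luteolin, a plant flavone. The comparison asked how the transcriptome of the damaged cornea differed after luteolin. Corneas without the dry eye model were not analysed here. The labels give no strain, sex or age, describe the tissue as holding multiple cell types, and leave unsaid whether each library is a separate animal. The p-values therefore reflect the spread among these libraries only, and that spread may be technical.

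These enzymes work in the Golgi, where each adds a sugar or a sulfate to a growing chain on a protein or lipid, and the order in which they act decides which structures the cell displays. Galnt enzymes start the O-glycans that cover mucins, and the C1galt, Gcnt and sialyltransferase enzymes extend, branch or cap them. The membrane mucins of the corneal epithelium carry such O-glycans in the glycocalyx that holds the tear film, and the corneal stroma is known for keratan sulfate, a sulfated chain of galactose and N-acetylglucosamine.

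The libraries held 16084855 to 16469699 estimated counts. The epithelial keratin Krt12, which defines the corneal epithelium, stood at 12532 to 16716 CPM (counts scaled to library size) with vehicle and 26862 to 27436 CPM with luteolin. Of 11 tested corneal epithelial markers 10 were higher and Krt14 was lower, and their summed level was 50950 to 58373 CPM with vehicle against 77421 to 80227 CPM with luteolin. Markers of macrophages and dendritic cells were lower in 12 of 12, with sums of 419 to 813 against 49.0 to 77.5 CPM, and vessel markers in 11 of 12, with sums of 169 to 281 against 44.3 to 49.9 CPM. Skeletal muscle markers set vehicle 1, vehicle 2 and luteolin 3 (mean log2 CPM 3.10 to 4.25) apart from the other libraries (-1.28 to -0.43). Keratocyte markers, of the stroma, summed to 3680 to 9763 CPM with vehicle and 2313 to 4919 CPM with luteolin. By the same test 28.5% of all tested genes were higher and 30.4% lower. In whole tissue, fewer cells of a type and less RNA per cell cannot be told apart.

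Most of the glycan enzymes differed between the groups, and more were lower than higher with luteolin. Of the 97 members, 81 had enough counts to be tested and 16 did not, each of those 16 at a mean of at most 0.175 FPKM (a level scaled for the length of the gene and the depth of the library) over the 6 libraries. With edgeR's quasi-likelihood test and a Benjamini-Hochberg adjusted p under 0.05 over all 13838 tested genes, 24 of the 81 were higher (29.6%, against 28.5% of all tested genes) and 37 were lower (45.7%, against 30.4%), while 20 did not pass. In either direction 75.3% were called, against 58.9% of all tested genes. The median log2 fold change, luteolin minus vehicle, was -0.33 for the members and -0.02 for all tested genes. Lower members often differed by much: 26 were lower by over 1 on the log2 scale (32.1%, against 15.1% of all tested genes), and 10 were higher by as much (12.3%, against 4.61%). The 3 libraries of each group did not overlap in CPM for 62 members (76.5%, against 67.4% of all tested genes). With the skeletal muscle level as a covariate, chosen after seeing the data, 21 of the 81 were higher and 34 lower. In that fit 3596 of all 13838 tested genes were higher and 3747 lower. Scaling by library size alone moved the median of all tested genes to -0.13 and upper quartile factors moved it to -0.11, where the members' medians were -0.45 and -0.43.

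**Figure D1:**
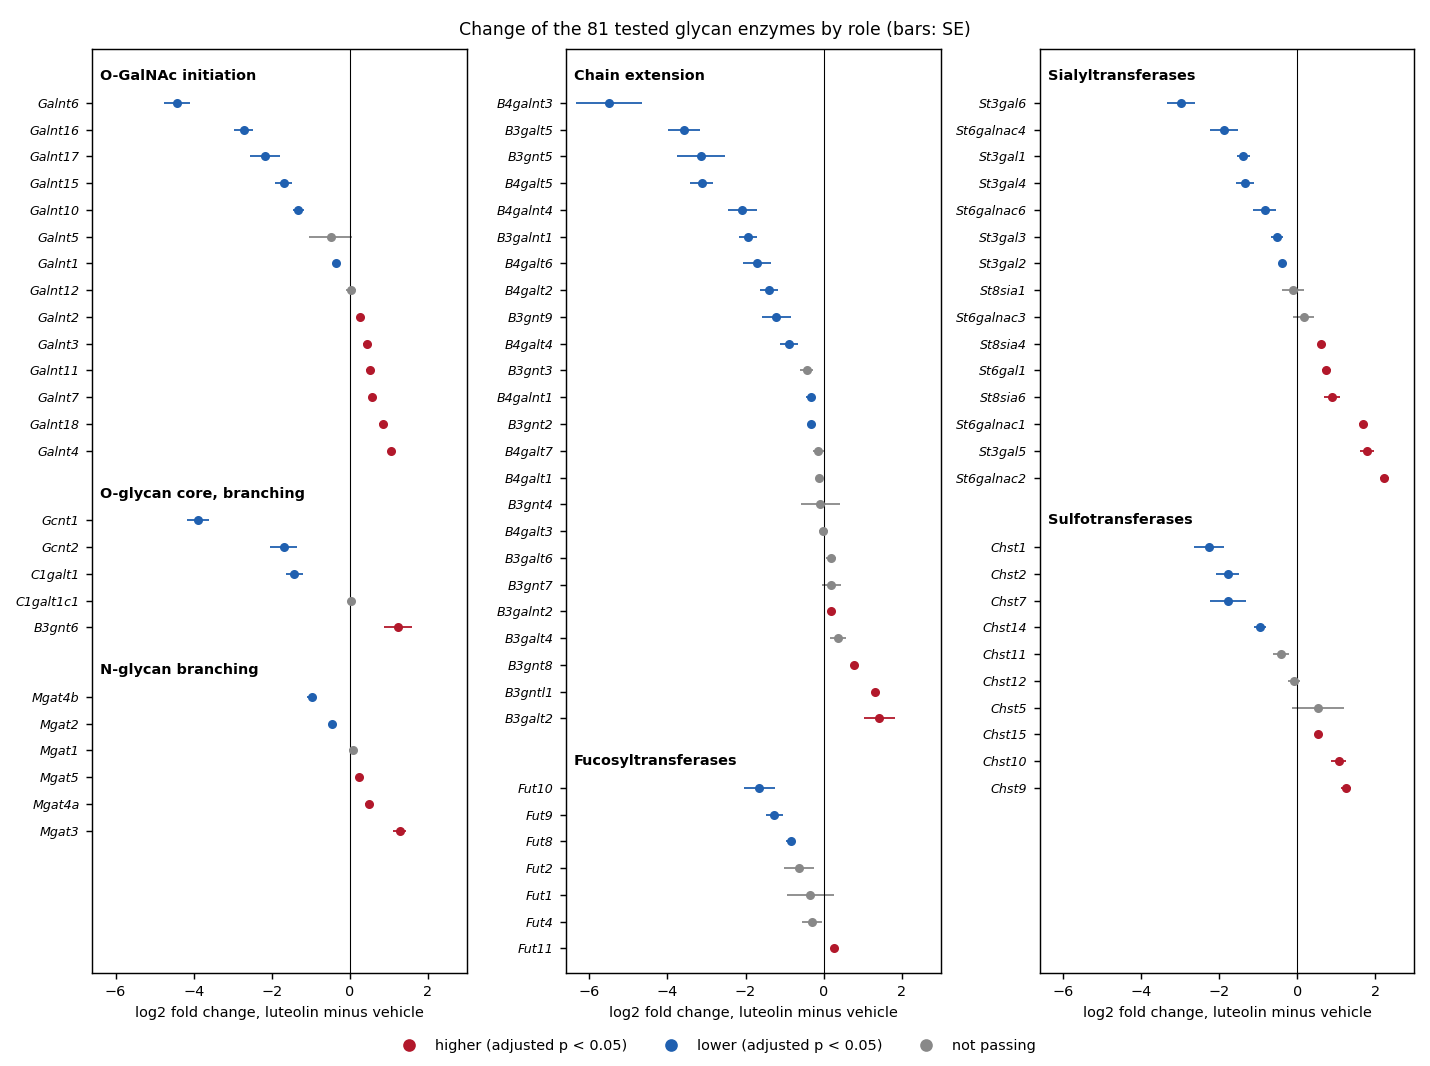
Log2 fold change (luteolin minus vehicle) of the 81 tested members, ordered within their roles, with the SE as a bar. Red points are the 24 called higher, blue points the 37 called lower and grey points the 20 that did not pass, and each role holds points on both sides of 0.

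Level and direction went together among these genes, in part by construction. The level is the mean FPKM over the 6 libraries, luteolin included, so a gene lower with luteolin also gets a lower level. The 24 higher members had a median level of 17.4 FPKM over the 6 libraries and the 37 lower members 1.81 FPKM. Of the 26 tested members at 10 FPKM or more, 16 were higher (61.5%) and 5 lower (19.2%), against 35.5% and 26.8% of all tested genes at that level. Of the 13 members between 1 and 3 FPKM, 1 was higher and 10 were lower (76.9%, against 38.6% of all tested genes at that level), and of the 19 below 1 FPKM, 1 was higher and 12 were lower (63.2%, against 39.8%). Between 3 and 10 FPKM, 6 of 23 were higher (26.1%, against 28.7% of all tested genes at that level) and 10 lower (43.5%, against 28.9%). Spearman's rho between level and log2 fold change was 0.61 across the 81 members and 0.18 across all 13838 tested genes. These values are a description across genes, which share the same libraries and are not independent replicates. The filter on low counts also keeps a gene with enough counts in the libraries of 1 group alone. Galnt6 (0.129 to 0.193 CPM with luteolin) and B4galnt3 (0 to 0.130 CPM) passed it only through vehicle. Shares of lower genes in the low bins are therefore partly set by the filter, which was the same for all tested genes.

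**Figure D2:**
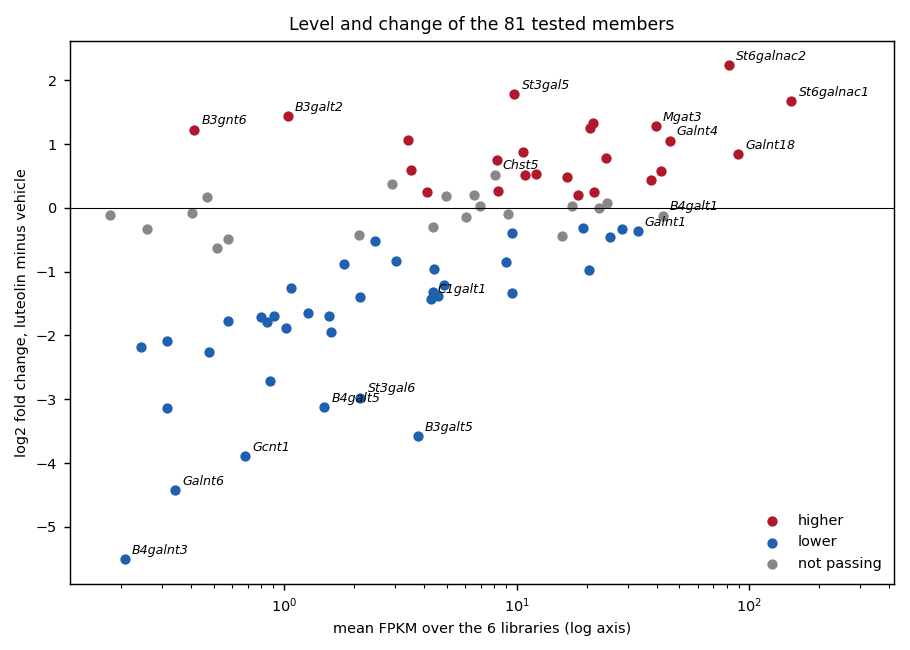
Mean level over the 6 libraries (FPKM, log axis) against log2 fold change (luteolin minus vehicle) for the 81 tested members, 1 point each. Higher members (red) have a median of 17.4 FPKM, and lower members (blue) a median of 1.81 FPKM. The level includes the luteolin libraries and is not independent of the change.

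Summed per length over a role, the sialyltransferases differed most. Their 18 genes together stood at 175 ± 17.8 FPKM with vehicle and 421 ± 16.4 FPKM with luteolin (SD, n = 3). The 17 Galnt genes stood at 256 ± 12 and 335 ± 8.37 FPKM, and the 13 sulfotransferases at 54.5 ± 9.35 and 69.8 ± 3.20 FPKM (SD, n = 3). Sums were lower with luteolin for O-glycan core and branching enzymes (27.4 ± 0.700 and 20.1 ± 0.942 FPKM), for fucosyltransferases (29.4 ± 1.49 and 20.3 ± 1.37 FPKM) and for the 26 chain extension enzymes (242 ± 5.87 and 221 ± 5.60 FPKM; SD, n = 3). Deposited FPKM put the log2 change of tested members lower than the counts did, by a median of 0.12. The small difference of the chain extension sum cannot be told apart from that offset. These sums follow the few most abundant genes of a role: the 97 members together stood at 910 ± 36.6 and 1221 ± 4.70 FPKM, and without St6galnac1 and St6galnac2 at 803 ± 25.0 and 863 ± 16.0 FPKM (SD, n = 3).

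**Figure D3:**
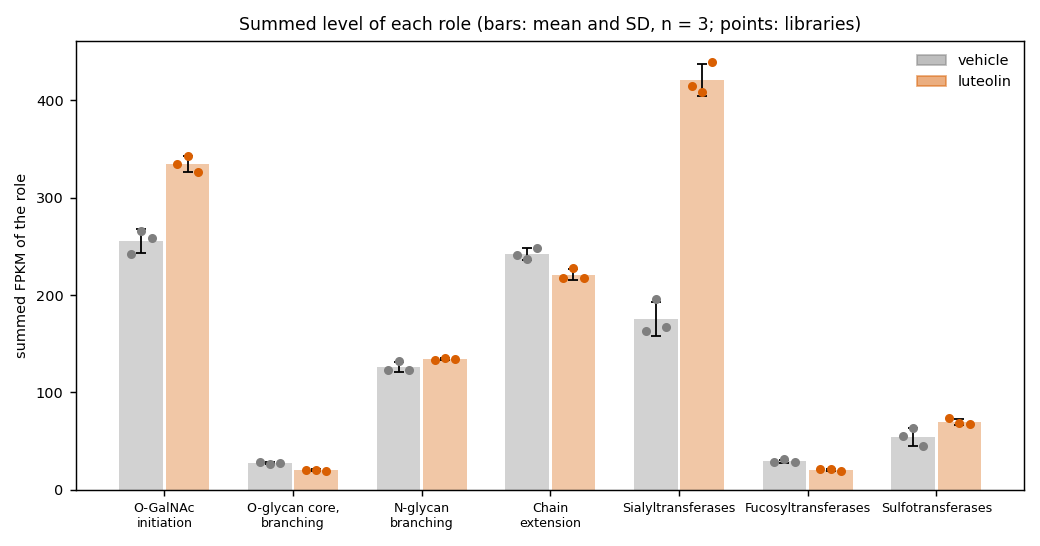
Summed FPKM of the genes of each role, with the mean and SD of 3 libraries as bars and each library as a point. The sialyltransferase sum stands at 175 FPKM with vehicle and 421 FPKM with luteolin, and the 3 luteolin points lie above the 3 vehicle points.

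Promoter windows are shown for 4 members, the 2 higher and the 2 lower with the smallest p among members with 1 listed start, so that the sequence next to the start of genes that moved in opposite directions can be read. They come from RefSeq's table on GRCm38.p6, run 5′ to 3′ on the gene's strand, and reach from 250 bases before the start to 50 bases from it on. Capitals mark CACCC, the core bound by KLF factors, and GGGCGG, the GC box, on either strand (GGGTG and CCGCCC on the other).
B3gntl1 (chr11:121673102-121673401, minus strand, higher): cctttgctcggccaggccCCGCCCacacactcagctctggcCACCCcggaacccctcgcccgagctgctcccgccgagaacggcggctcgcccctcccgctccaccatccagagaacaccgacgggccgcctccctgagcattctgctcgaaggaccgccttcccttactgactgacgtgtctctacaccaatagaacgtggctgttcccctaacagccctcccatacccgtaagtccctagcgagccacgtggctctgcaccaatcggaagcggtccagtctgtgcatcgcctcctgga
St3gal5 (chr6:72097358-72097657, plus strand, higher): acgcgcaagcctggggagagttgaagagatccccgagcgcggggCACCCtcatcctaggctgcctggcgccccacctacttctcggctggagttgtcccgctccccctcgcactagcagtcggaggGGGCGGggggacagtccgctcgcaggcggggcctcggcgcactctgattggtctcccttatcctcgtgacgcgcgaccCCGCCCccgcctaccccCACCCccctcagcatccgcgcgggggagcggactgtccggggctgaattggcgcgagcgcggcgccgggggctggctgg
B4galt5 (chr2:167349129-167349428, minus strand, lower): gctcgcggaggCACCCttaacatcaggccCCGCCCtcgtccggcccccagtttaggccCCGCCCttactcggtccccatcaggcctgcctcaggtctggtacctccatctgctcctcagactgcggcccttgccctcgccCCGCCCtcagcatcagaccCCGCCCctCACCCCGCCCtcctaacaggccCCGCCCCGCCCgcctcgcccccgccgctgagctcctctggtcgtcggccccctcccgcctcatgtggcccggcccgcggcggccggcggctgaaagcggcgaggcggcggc
Galnt10 (chr11:57645192-57645491, plus strand, lower): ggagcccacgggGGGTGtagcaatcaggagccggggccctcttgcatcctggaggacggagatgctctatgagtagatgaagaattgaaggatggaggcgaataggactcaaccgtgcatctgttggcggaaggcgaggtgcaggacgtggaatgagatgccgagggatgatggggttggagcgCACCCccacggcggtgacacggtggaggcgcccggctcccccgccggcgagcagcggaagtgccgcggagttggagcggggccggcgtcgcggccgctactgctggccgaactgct
The B3gntl1 window holds 1 CACCC and 1 GGGCGG, the St3gal5 window 2 and 2, the B4galt5 window 2 and 7, of which 1 overlaps a CACCC, and the Galnt10 window 2 and 0. A window was listed for 74 of the 97 members, 15 of the 24 higher (20 windows) and 28 of the 37 lower (41 windows). CACCC was found in 70.0% of the higher and 73.2% of the lower windows, against 57.5% of all 32851 windows, and GGGCGG in 70.0% and 48.8%, against 35.7%. The median GC content was 57.5% and 62.3%, against 52.7% for all windows. The AP-1 motif TGANTCA was found in 10.0% and 4.88%, against 7.81%, and TATAAA in 0 and 2.44%, against 13.6%.

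Enzymes that start O-glycans moved in both directions. Galnt members transfer N-acetylgalactosamine to serine or threonine. Of the 14 tested, 6 were higher and 6 lower, against 28.5% and 30.4% of all tested genes, and 2 were not called. Their median log2 fold change was -0.17. The 6 higher ones were Galnt4, Galnt18, Galnt7, Galnt11, Galnt3 and Galnt2. Galnt4 (gene ID 14426) stood at 132, 157 and 142 CPM in vehicle 1 to 3 and at 302, 303 and 289 CPM in luteolin 1 to 3. Every luteolin library was above every vehicle library, and the log2 fold change was 1.05 (SE 0.0751, edgeR adjusted p = 7.92e-05), 2.08-fold. Galnt18 (gene ID 233733), the most abundant of the family in both groups by length-scaled level (67.6 ± 7.72 and 112 ± 5.41 FPKM; SD, n = 3), read 123, 156 and 154 CPM against 246, 273 and 257 CPM. Its groups did not overlap either, and its log2 fold change was 0.84 (SE 0.101, edgeR adjusted p = 0.000465). Galnt7 acts on sites next to existing N-acetylgalactosamine, and rose from 127, 143 and 140 CPM to 204, 211 and 194 CPM (log2 fold change 0.57, edgeR adjusted p = 0.000451). Galnt3, an epithelial member, read 94.7, 108 and 123 CPM with vehicle and 148, 152 and 144 CPM with luteolin, a log2 fold change of 0.44 (edgeR adjusted p = 0.00563). Galnt11 had a log2 fold change of 0.51. The call of Galnt2 (0.25) ended without luteolin 1, under library sizes only, under upper quartile factors and with limma (adjusted p 0.00773 to 0.148 over its alternatives).

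Of the 6 lower Galnt genes, Galnt1 stood at a mean of 38.5 FPKM with vehicle, Galnt10 at 6.51 FPKM, and Galnt6, Galnt15, Galnt16 and Galnt17 at 0.410 to 2.45 FPKM. Galnt6 (gene ID 207839) stood at 3.56, 3.86 and 2.74 CPM with vehicle and fell to 0.193, 0.130 and 0.129 CPM with luteolin, 173 against 7 estimated counts. The groups were far apart, with a log2 fold change of -4.42 (SE 0.338; adjusted p = 9.90e-05 with edgeR), 21.4-fold. Galnt16 fell from 5.37, 6.09 and 4.41 CPM to 0.903, 0.650 and 0.836 CPM (log2 fold change -2.72, edgeR adjusted p = 0.000157), and Galnt10 from 22.8, 27.9 and 19.7 CPM to 10.1, 9.42 and 8.75 CPM (-1.32, adjusted p = 0.000346). Galnt17 and Galnt15 had log2 fold changes of -2.18 and -1.70. Galnt1 (gene ID 14423), a broadly expressed member, stood at 143, 120 and 135 CPM with vehicle and 107, 105 and 97.5 CPM with luteolin. Its decrease was small, -0.36 on the log2 scale (edgeR adjusted p = 0.00596), with no overlap of the groups. Galnt5 and Galnt12 did not pass, and the value of Galnt5 turned from -0.49 to 0.18 without vehicle 2.

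Of the enzymes that turn the first sugar into a core, the core 1 synthase was lower and its chaperone was not called. C1galt1 (gene ID 94192), which adds galactose to form core 1, read 10.5, 8.55 and 13.0 CPM with vehicle and 3.29, 4.61 and 4.05 CPM with luteolin. The lowest vehicle library was above the highest luteolin library, and the log2 fold change was -1.42 (SE 0.211, edgeR adjusted p = 0.00116), 2.68-fold lower. C1galt1c1 (gene ID 59048), the chaperone Cosmc that C1galt1 needs to fold, stood at 20.8, 20.3 and 20.0 CPM against 21.9, 21.3 and 19.3 CPM. Its groups overlapped, and its log2 fold change of 0.03 (SE 0.0818) did not pass (edgeR adjusted p = 0.771). Gcnt1 (gene ID 14537), which branches core 1 into core 2, fell from 6.13, 5.09 and 4.47 CPM to 0.322, 0.260 and 0.450 CPM, 267 against 16 estimated counts. Its log2 fold change of -3.90 (SE 0.288; adjusted p = 9.07e-05 with edgeR) was 14.9-fold. Gcnt2, which branches lactosamine chains into the I antigen, had a log2 fold change of -1.69 (edgeR adjusted p = 0.00478). B3gnt6, the core 3 synthase, was higher but scarce, at 0.292, 0.585 and 0.655 CPM against 1.35, 1.10 and 1.16 CPM, with a log2 fold change of 1.23 (edgeR adjusted p = 0.0219). That call ended under DESeq2 and without vehicle 1, luteolin 1, luteolin 2 or luteolin 3 (adjusted p 0.0128 to 0.0775 over its alternatives).

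St6galnac1 and St6galnac2, which cap the first sugar of O-glycans, rose from levels already high among the members. Both add sialic acid to N-acetylgalactosamine on the protein. RefSeq's gene table for GRCm38.p6 places both on chromosome 11 with 0 protein-coding genes between them. St6galnac1 (gene ID 20445) read 133, 167 and 161 CPM with vehicle and 484, 479 and 506 CPM with luteolin. St6galnac2 (gene ID 20446) read 44.7, 60.2 and 46.5 CPM with vehicle and 233, 223 and 256 CPM with luteolin. For each, the lowest luteolin library lay far above the highest vehicle library. The log2 fold change of St6galnac1 was 1.67 (SE 0.0945, edgeR adjusted p = 4.54e-05), 3.19-fold, and that of St6galnac2 was 2.23 (SE 0.123, edgeR adjusted p = 4.38e-05), 4.70-fold. In length-scaled level St6galnac1 was the highest of all 97 members in both groups, at 77.1 ± 8.14 and 226 ± 6.16 FPKM, and St6galnac2 stood at 30.6 ± 5.09 and 132 ± 9.07 FPKM (SD, n = 3). Together they made up 58.6% to 64.1% of the summed sialyltransferase FPKM in the vehicle libraries and 84.3% to 85.7% in the luteolin libraries. The other 16 sialyltransferases summed to 67.7 ± 7.80 and 62.8 ± 3.0 FPKM (SD, n = 3).

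Marker levels moved beside this increase. The corneal epithelial sums above were higher with luteolin, by less than either gene, and Krt12 had a log2 fold change of 0.87. Conjunctival epithelial markers were lower in 4 of 6 and higher in 0, with sums of 4202 to 4500 CPM with vehicle against 1800 to 2783 CPM with luteolin. Of 10 goblet cell markers 6 were in the table and 2 could be tested: Fcgbp, a secreted mucus protein, rose from between 16.1 and 29.1 CPM to between 57.6 and 67.3 CPM and Agr2 did not pass, and the 6 summed to 20.7 to 33.8 CPM with vehicle and 60.7 to 73.5 CPM with luteolin. Muc5b, a gel-forming mucin, was at 0 in 4 of the 6 libraries, and Spdef, a goblet cell transcription factor, reached at most 0.257 CPM. The part of these cells in the result was not tested.

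The sialyltransferases as a whole, St6galnac1 and St6galnac2 included, moved both ways. Of the 15 tested, 6 were higher and 7 lower, against 28.5% and 30.4% of all tested genes, and 2 were not called. Their median log2 fold change was -0.11. St3gal1 (gene ID 20442), which caps core 1, fell from 30.3, 35.7 and 41.3 CPM to 11, 14.6 and 15.4 CPM, with no overlap (log2 fold change -1.38, SE 0.161, edgeR adjusted p = 0.000412). St3gal2, with a similar acceptor, had a log2 fold change of -0.39. St3gal4 and St3gal6, which cap lactosamine chains and act in making sialyl Lewis x, had log2 fold changes of -1.34 and -2.98. St3gal6 (gene ID 54613) read 8.58, 8.08 and 5.36 CPM with vehicle and 0.774, 1.43 and 0.579 CPM with luteolin, so the groups were apart by several times (edgeR adjusted p = 0.000459). St6gal1, which puts sialic acid on N-glycans, was higher at 41.5, 34.8 and 43.0 CPM against 20.3, 26.3 and 24.4 CPM (log2 fold change 0.75, edgeR adjusted p = 0.00175). St8sia6 had a log2 fold change of 0.88. St8sia4, a polysialyltransferase, had 0.60, and its call ended only with limma on FPKM (adjusted p 6.43e-07 to 0.0946 over its alternatives). St6galnac4, of the same family as St6galnac1 and St6galnac2, was lower at -1.89. The calls of St3gal3 (-0.52) and St6galnac6 (-0.84) ended under several alternatives, for St3gal3 without vehicle 1, vehicle 3, luteolin 1 or luteolin 3 (adjusted p 0.00980 to 0.0819 over its alternatives) and for St6galnac6 without vehicle 1, vehicle 2 or any luteolin library (0.0106 to 0.143).

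**Figure D4:**
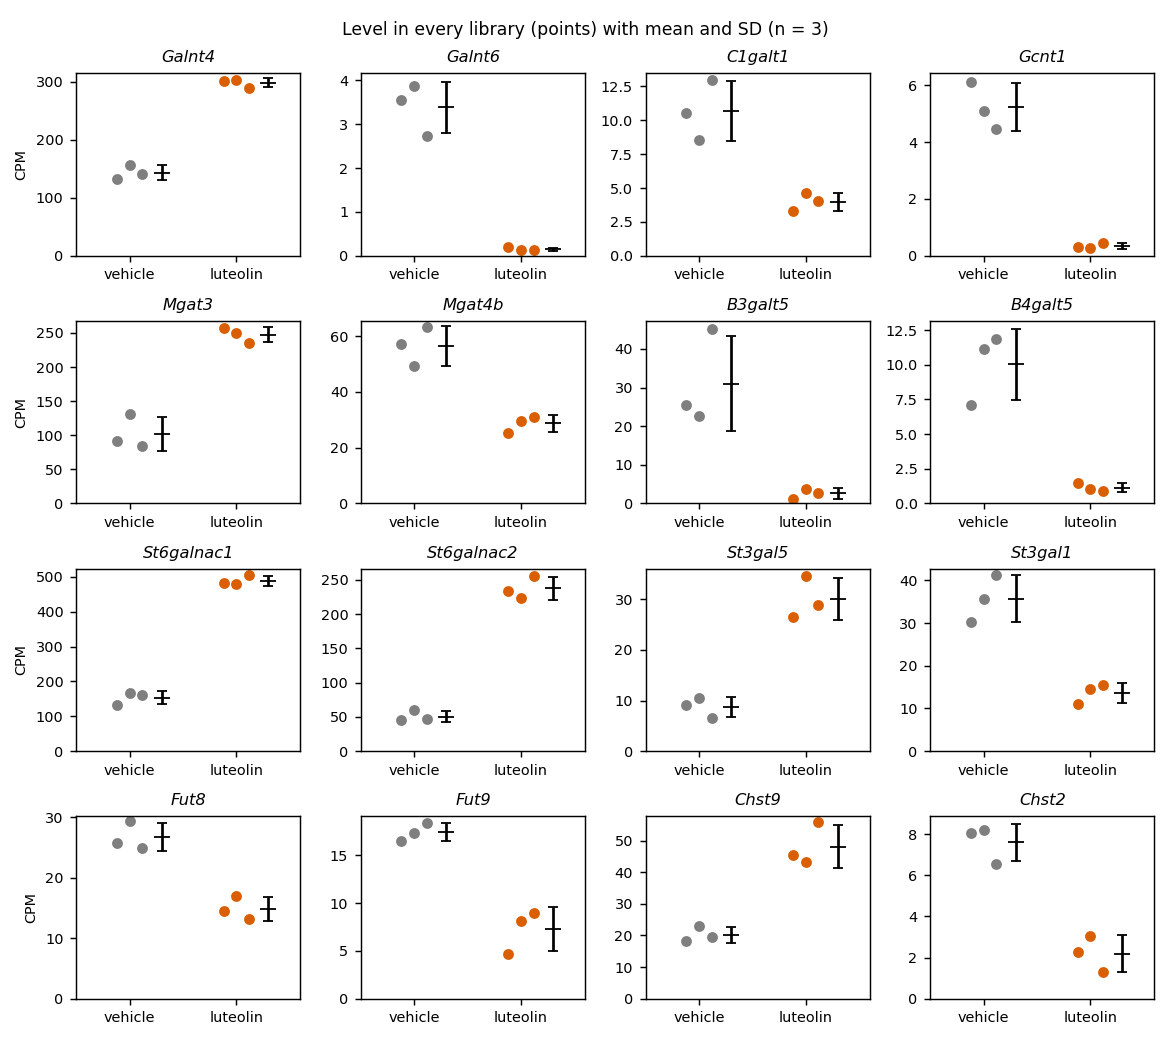
CPM of 16 members in each library (points) with the mean and SD of each group (n = 3) beside them, each panel on its own axis from 0. The 16 are called members picked with their values in view, and in all 16 panels the 3 vehicle and 3 luteolin points do not overlap. Lack of overlap was found for 76.5% of the tested members and 67.4% of all tested genes. St6galnac1 stands at 133 to 167 CPM with vehicle and 479 to 506 CPM with luteolin.

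The members that build glycolipids also moved in opposite directions. Ugcg, which is no member, makes the glucosylceramide from which they start, and it fell by 1.92 on the log2 scale. B4galt5 (gene ID 56336) and B4galt6 add galactose to make lactosylceramide. B4galt5 read 7.12, 11.1 and 11.9 CPM with vehicle and 1.48, 1.04 and 0.901 CPM with luteolin, with no overlap (log2 fold change -3.13, SE 0.288, edgeR adjusted p = 0.000170), 8.74-fold lower. B4galt6 fell from 4.79, 8.55 and 3.99 CPM to 1.87, 2.21 and 1.22 CPM (-1.70, edgeR adjusted p = 0.00560).

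The next step divides the series of glycolipids. St3gal5 (gene ID 20454), which adds sialic acid to lactosylceramide to make the ganglioside GM3, rose from 9.17, 10.5 and 6.61 CPM to 26.5, 34.7 and 29.0 CPM. No luteolin library was near the vehicle range, and the log2 fold change was 1.78 (SE 0.181, edgeR adjusted p = 0.000247), 3.43-fold. B3gnt5, which starts the lacto series instead, was lower and scarce, at 1.11, 2.11 and 3.81 CPM against 0.451, 0.130 and 0.193 CPM (log2 fold change -3.14, SE 0.626, edgeR adjusted p = 0.00420, and -3.80 without luteolin 1). B3galnt1, which makes globoside, fell by 1.95 on the log2 scale, while A4galt, which makes its precursor and is no member, rose by 1.01. B4galnt1, which makes the ganglioside GM2, had overlapping groups and a log2 fold change of -0.33 (edgeR adjusted p = 0.0438). Its call ended without vehicle 1, vehicle 3 or any luteolin library (adjusted p 0.00550 to 0.134 over its alternatives). B3galt4 and St8sia1, which act further along the ganglioside pathway, did not pass. Gal3st1, a sulfotransferase of galactolipids outside the member list, rose by 2.45 on the log2 scale.

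N-glycan branching genes changed in a mixed pattern. Of 6 tested, 3 were higher and 2 lower, against 28.5% and 30.4% of all tested genes, and Mgat1 did not pass. The median log2 fold change of the 6 was 0.16. Mgat3 (gene ID 17309) adds the bisecting N-acetylglucosamine, which hinders further branching, and read 92.0, 130 and 84.0 CPM with vehicle and 258, 249 and 235 CPM with luteolin. The groups did not overlap, and the log2 fold change was 1.28 (SE 0.157, edgeR adjusted p = 0.000511), 2.42-fold. Mgat4b (gene ID 103534), which adds a branch, fell from 57.3, 49.2 and 63.2 CPM to 25.4, 29.6 and 31.1 CPM (log2 fold change -0.98, SE 0.116, edgeR adjusted p = 0.000445). Its relative Mgat4a rose by 0.49 on the log2 scale. Mgat2, which starts the second antenna, read 66.6, 68.4 and 63.9 CPM against 47.1, 51.2 and 46.5 CPM (log2 fold change -0.46, edgeR adjusted p = 0.000860). Mgat5, which makes a branch that carries long lactosamine chains, was higher by 0.24 on the log2 scale (edgeR adjusted p = 0.0492). That call ended under most alternatives, including without vehicle 1, without vehicle 3 and without any luteolin library (adjusted p 0.0228 to 0.426). Mgat4c and Mgat5b were not tested. In the pathway before these steps, 12 of 26 genes of oligosaccharyltransferase and dolichol-linked assembly were lower and 3 higher (median -0.21), and of 11 trimming genes 4 were lower and 2 higher (median -0.11), with the Golgi mannosidases Man1a and Man2a1 at -2.15 and -1.17.

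Among the 24 tested enzymes of chain extension, 12 were lower and 4 higher, against 30.4% and 28.5% of all tested genes. Without luteolin 3, 2 were higher. In the main fit 8 were not called, and the median log2 fold change of the 24 was -0.32. B4galt1 (gene ID 14595), the main galactosyltransferase of N-acetylglucosamine and the most abundant of this role by length-scaled level (46.1 ± 1.17 and 38.7 ± 1.6 FPKM; SD, n = 3), read 147, 154 and 161 CPM with vehicle and 145, 144 and 135 CPM with luteolin. The groups lay side by side, and the log2 fold change of -0.13 did not pass (edgeR adjusted p = 0.111). It did pass with upper quartile factors, with library sizes only and with limma (adjusted p 0.00696 to 0.264 over its alternatives). B3galt5 (gene ID 93961), which makes type 1 chains, read 25.5, 22.5 and 45.0 CPM with vehicle and 1.16, 3.77 and 2.83 CPM with luteolin. In absolute CPM, though not relative to level, B3galt5 had the widest vehicle range of this role's lower members. Its log2 fold change was -3.58 (SE 0.419, edgeR adjusted p = 0.000426), 12-fold lower.

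B4galnt3 and B4galnt4 both add N-acetylgalactosamine in place of galactose. B4galnt3 (gene ID 330406) had 117 estimated counts with vehicle and 2 with luteolin, a ratio of 53.3 with an exact 95% counting interval of 14.4 to 445, which covers counting error only (edgeR adjusted p = 0.00132). The 2 counts were in luteolin 2, and the fitted log2 fold change was -5.50, or -8.25 without that library. B4galnt4 fell by 2.08 on the log2 scale. B4galt2 and B3gnt2, which extend lactosamine chains, had log2 fold changes of -1.40 and -0.32. The call of B3gnt2 ended without luteolin 2 or luteolin 3 (adjusted p 0.00538 to 0.0598 over its alternatives), and that of B3gnt9 (-1.21) without vehicle 1, vehicle 2 or luteolin 3 and with the muscle covariate (0.00230 to 0.0773).

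Higher members of this role were B3gntl1, B3gnt8, B3galt2 and B3galnt2. B3gntl1 (gene ID 210004) rose from 29.9, 35.4 and 29.9 CPM to 81.4, 80.2 and 77.5 CPM, with little spread in either group (log2 fold change 1.33, SE 0.0809, edgeR adjusted p = 5.11e-05), 2.51-fold. B3gnt8, which extends lactosamine chains on N-glycans, rose from 23.8, 25.5 and 28.5 CPM to 44.3, 45.8 and 43.4 CPM (0.78, edgeR adjusted p = 0.000281). B3galt2 had a log2 fold change of 1.43, and 2.04 without vehicle 2, and its call ended without vehicle 1 or luteolin 3 (adjusted p 0.000865 to 0.0651 over its alternatives). B3galnt2, which acts on O-mannose of dystroglycan, had 0.20, and its call ended under 11 of 16 alternatives, among them without vehicle 2, vehicle 3 or any luteolin library (0.0272 to 0.450).

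Fucosyltransferases were lower where they passed, except Fut11. Of 7 tested, 3 were lower and 1 higher, against 30.4% and 28.5% of all tested genes, and 3 did not pass. The median log2 fold change of the 7 was -0.63. Fut8 (gene ID 53618), which adds the core fucose of N-glycans, read 25.8, 29.4 and 25.0 CPM with vehicle and 14.4, 17.0 and 13.2 CPM with luteolin, with no overlap (log2 fold change -0.84, SE 0.119, edgeR adjusted p = 0.000932). Fut9 (gene ID 14348), which makes Lewis x, fell from 16.5, 17.4 and 18.4 CPM to 4.71, 8.12 and 9.01 CPM (-1.26, edgeR adjusted p = 0.00253). The log2 fold change of Fut10 was -1.64. For Fut11 (0.27) the call ended without vehicle 3 or any luteolin library, and under 9 of 16 alternatives in all (adjusted p 0.0255 to 0.233). Fut1 and Fut2, which make the H antigen, and Fut4 did not pass.

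Several members act together in making the sulfated sialyl Lewis x ligands of selectins, the adhesion receptors of leukocytes and vessels. Fut7 (gene ID 14347), the leukocyte and vessel fucosyltransferase of that ligand, was not tested and had 11 estimated counts with vehicle and 1 with luteolin, a ratio of 10.0 with an exact 95% counting interval of 1.46 to 431 that covers counting error only. Chst2 (gene ID 54371), which sulfates its N-acetylglucosamine, read 8.06, 8.19 and 6.55 CPM against 2.26, 3.05 and 1.29 CPM, with no overlap (log2 fold change -1.79, SE 0.298, edgeR adjusted p = 0.00190). Gcnt1, St3gal4 and St3gal6 fell, as described above, while Fut4 (-0.30, edgeR adjusted p = 0.329) and B4galt1, which can act on the same chains, did not pass. These members were put together with their values in view. Of 13 tested galectins, selectins and selectin ligand cores 10 were lower and 1 higher (median -2.14), against 30.4% and 28.5% of all tested genes (median -0.02). Among them were Selp at -4.33 and Selplg, the core protein of the P-selectin ligand, at -3.11. Beside them, neutrophil markers were lower in 4 of 4, with sums of 32.6 to 48.4 CPM against 1.23 to 2.38 CPM, and the macrophage and vessel sums given above were lower too. The part of these cells in the changes of the enzymes was not tested.

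Of 10 tested sulfotransferases, 3 were higher and 4 lower, against 28.5% and 30.4% of all tested genes, and 3 did not pass. The median log2 fold change of the 10 was -0.26. Chst9 (gene ID 71367), which sulfates N-acetylgalactosamine, rose from 18.1, 23.1 and 19.7 CPM to 45.3, 43.1 and 55.8 CPM, with no overlap (log2 fold change 1.24, SE 0.130, edgeR adjusted p = 0.000271). Chst10, which makes the HNK-1 epitope, rose by 1.06. Chst15, which adds the second sulfate of highly sulfated chondroitin, read 43.1, 45.8 and 46.4 CPM against 66.4, 67.1 and 61.6 CPM (0.53, edgeR adjusted p = 0.000459). Chst14, the dermatan sulfotransferase, fell by 0.95 on the log2 scale, and the chondroitin enzymes Chst11 and Chst12 did not pass. Chst7, of chondroitin, had -1.78, and its call ended without luteolin 1 (adjusted p 0.00641 to 0.0506 over its alternatives). In the list of other chondroitin and dermatan sulfate genes 8 of 13 were lower and 3 higher (median -0.46), with the epimerase Dse at -2.40, and in the heparan sulfate list 5 of 16 were lower and 5 higher (median -0.11).

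Enzymes of keratan sulfate, the stromal chain, showed no common direction. B3gnt7 and B4galt4 extend the chain, and Chst5 and Chst1 sulfate its N-acetylglucosamine and galactose. Chst5 (gene ID 56773) read 14.7, 15.9 and 1.79 CPM with vehicle and 21.5, 16.7 and 8.30 CPM with luteolin. Vehicle 3 and luteolin 3 were the low libraries of their groups, the groups overlapped, and the log2 fold change of 0.52 had an SE of 0.670 (edgeR adjusted p = 0.528, and 0.121 to 0.990 over its alternatives). Its value was 0.01 without vehicle 3 and 1.30 with the muscle covariate. B3gnt7 stood at 11, 12.1 and 18.9 CPM against 18.8, 17.5 and 12 CPM, a log2 fold change of 0.20 that did not pass (edgeR adjusted p = 0.507). B4galt4 fell from 4.26, 5.21 and 3.69 CPM to 2.06, 2.86 and 2.19 CPM (-0.89, edgeR adjusted p = 0.0127). Chst1 (gene ID 76969) fell from 1.58, 2.34 and 1.13 CPM to 0.322, 0.390 and 0.322 CPM (-2.26, SE 0.393, edgeR adjusted p = 0.00228), and neither of those last pairs of groups overlapped.

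The keratan sulfate core proteins varied within groups. Their sums were 894, 1958 and 555 CPM with vehicle and 907, 959 and 436 CPM with luteolin, with vehicle 3 and luteolin 3 lowest, as for the keratocyte sums (3680 and 2313 CPM in those libraries). Of 6 tested, Omd (-1.64), Prelp (-1.52) and Ogn (-1.23) were lower, and Lum (-1.12), Kera (1.26) and Fmod (0.22) did not pass. The part of the stromal content of a library in these values was not tested.

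**Figure D5:**
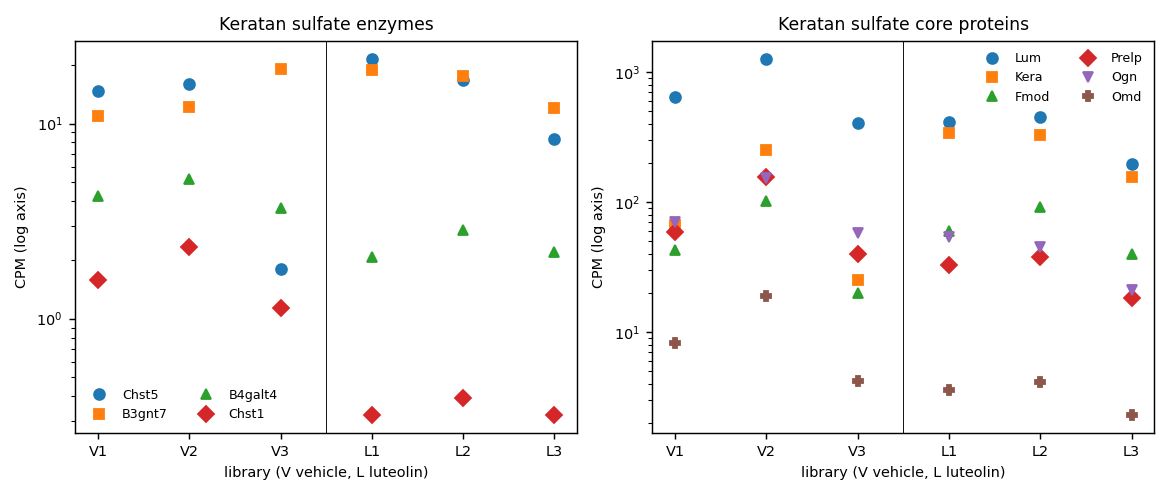
CPM (log axis) of 4 keratan sulfate enzymes (left) and 6 core proteins (right) in each library, V for vehicle and L for luteolin. Chst5 is lowest in vehicle 3 (1.79 CPM), Chst1 lies between 1.13 and 2.34 CPM with vehicle and between 0.322 and 0.390 CPM with luteolin, and the core proteins differ severalfold between libraries of the same group.

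The supply of sugar donors and the mucin acceptors were described with the same test, by which 28.5% of all tested genes were higher and 30.4% lower. Of 21 genes that make sugar nucleotides and the sulfate donor, 7 were higher and 7 lower (median -0.09, against -0.02 for all tested genes), and of 10 Golgi transporters 4 were higher and 3 lower (median 0.04). Genes of sialic acid supply differed in direction: Gne, which starts sialic acid synthesis, had a log2 fold change of 0.89, Cmas, which activates it, 0.50, and Slc35a1, which carries it into the Golgi, 0.88 (edgeR adjusted p = 0.000242). Of the steps between Gne and Cmas, Nanp was lower (-0.29, edgeR adjusted p = 0.0224) and Nans (-0.06) did not pass. Slc35a1 read 87.3, 105 and 86.0 CPM with vehicle and 165, 178 and 168 CPM with luteolin. Of 6 tested mucins 5 were higher and 0 lower (median 1.07), with the membrane mucins Muc4 at 1.03, Muc15 at 1.10, Muc20 at 1.28 and Muc13 at 2.86, while Muc1 (0.35) did not pass. Muc4 alone read 851 to 1146 CPM with vehicle and 1900 to 2166 CPM with luteolin. Of 13 genes of O-mannose, O-fucose and O-glucose 2 were higher and 4 lower, and of 23 lysosomal glycosidases and sulfatases 6 were higher and 8 lower (median -0.04), with the sialidase Neu3 higher by 1.18.

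Some members share reads or position with other genes. By RefSeq's gene positions on GRCm38.p6, 13 members overlap another protein-coding gene, 9 of them among the called ones, and without knowledge of strand in the counting their reads may be mixed. Galnt4 lies in Poc1b (log2 fold change -0.08, not passing), B3gntl1 overlaps Tbcd (0.19), St3gal6 overlaps Dcbld2 (-1.61), and B4galnt1 overlaps Slc26a10 (-1.13). B3galnt2, B3galt2, B3gnt9, Chst7 and Chst10 also overlap a neighbour. Counts with decimals, which arise where reads are shared out among similar genes, occurred in 13 members, B3gntl1, B3galt2, B3galnt2, B3gnt9, B4galnt1, St8sia4 and St6galnac3 in all 6 libraries, and these values are uncertain to that extent.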

How the data were processed

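Per the labels' protocols, corneas were flash frozen, RNA was taken up in Trizol, and libraries were built with an Illumina TruSeq kit. Bowtie2 2.2.5 and RSEM 1.2.12, and the build mm9, are named in the submitters' processing notes. Which annotation and strand setting were used is not given in the sources used here, nor is either tool's role. The authors deposited estimated counts, of which 10.3% to 10.8% per library had decimals (over 0.001 from a whole number). FPKM, as deposited, is scaled by gene length and depth, per the file headers. The deposited TPM values and the deposited normalized counts, a signal scaled per library, were not used, nor were 8 columns of group averages.

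Samples were grouped by title. Counts were rounded for edgeR 4.0.16 (R 4.3.3). The filter filterByExpr (minimum count 10, minimum total 15) removed 3956 genes and left 13838. TMM factors scaled the libraries. Luteolin was compared with vehicle by the quasi-likelihood test, with Benjamini-Hochberg adjustment over all tested genes and a threshold of 0.05. The common biological coefficient of variation was 13.8%. CPM uses the TMM factors (0.957 to 1.06), the SE is the log2 fold change divided by the square root of F, and counts of 1 to 3 got an exact conditional 95% interval. Levels between genes were compared in FPKM.

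Members and lists were chosen with earlier results of these data known. Members with values per library are, in each role, the up to 4 called members with the smallest p, plus enzymes named for their role in cornea or mucins; from each list the 2 genes with the smallest p may be named. B4galt6, B3gnt5, Chst10 and other members and list genes given beyond that rule, such as the mucins, Gne, Cmas, Neu3, Selp and Selplg, were picked with their values in view. The same holds for the genes plotted per library. Gcnt3, which the rule names, is not analysed here. Promoter windows and gene positions are RefSeq's (GRCm38.p6); all 97 members matched by gene ID. Alternatives were DESeq2 1.42.0, other factors and filters, the replicate block, limma 3.58.1 on log2(FPKM + 1) or log2(FPKM + 0.1), leaving out each library and, added after seeing the data, a skeletal muscle covariate. On simulated data for luteolin against vehicle (200 of 13838 genes changed, 50 per fold) the share recovered was 40% for 1.5-fold, 62% for 2-fold, 94% for 4-fold and 100% for 8-fold changes. Of 157 calls 5.73% were false. These shares belong to a setting with far fewer changed genes than were called in the data.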

Additional observations from a re-analysis of the deposited data

How the results depend on the processing

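Of the 61 called members, 48 were called under every one of the 16 alternatives that tested them (17 higher, 31 lower). The call of 13 ended under at least 1, 5 further members were called under at least 1, and 0 reversed. The filter of 1 CPM in 3 libraries tested 78 of the 81 members, and a member it removed was not counted as losing its call. Of the 36 called with a log2 fold change over 1 in size, 32 were called under every alternative that tested them. The same shares over all called genes were not computed, so these counts do not set the members apart from other genes. Leaving out each library gave 19 to 23 higher and 33 to 37 lower, with 81 to 84 members tested. Over all 13952 to 14136 genes tested in those fits, 3192 to 4087 were higher and 3581 to 4406 lower. The median of members was -0.38 to -0.30, and 64 to 68 members had no overlap. With fewer libraries overlap is rarer by construction, and the share of all genes without overlap was not computed for these fits. The other settings gave 19 to 24 higher and 34 to 40 lower, with 78 to 97 members tested. Of the 13318 to 17759 genes tested there, 2794 to 3944 were higher and 3747 to 5567 lower. The median of members was -0.18 with limma on log2(FPKM + 1), a scale that shrinks changes of low genes by construction. The higher count of O-glycan core enzymes was 0 under DESeq2 and 0 to 1 without each library. For fucosyltransferases it was 0 with upper quartile factors, library sizes only, both limma fits and the muscle covariate, and 0 to 1 without each library; for chain extension it was 2 to 3 without each library, with 2 without luteolin 3. The cause was not tested.

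Same-numbered vehicle and luteolin libraries had correlations of deviations of -0.15, 0.03 and 0.01, and not every library correlated best with its own number, so the numbers are not taken as pairs. The fit with the replicate block gave 24 higher and 37 lower members and a median of -0.31. The call of B4galnt1 ended with the replicate block. Depth limits the 16 untested members. With 3 libraries a group, 1.5-fold differences were often missed in simulation. That simulation had far fewer changed genes than were called in the data, so its recovered share may not hold for them.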

Other observations

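For most members the change in deposited FPKM lay below the change in counts by a similar amount, and a few members departed from this. Over the 81 tested members the log2 ratio of mean FPKM was lower than the log2 fold change from counts by a median of 0.12. The counts were scaled with TMM factors, 1.02 to 1.06 in the vehicle and 0.957 to 0.965 in the luteolin libraries. FPKM was used as deposited, without these factors. The widest gap was in St6galnac3, with a log2 FPKM ratio of -0.74 and a count change of 0.16 that did not pass, and its counts had decimals in all 6 libraries. St8sia4 had 0.25 in FPKM and 0.60 in counts.

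Among the 16 untested members, Mgat5b had 34 estimated counts with vehicle and 10 with luteolin, Gcnt4 45 and 13, Chst3 33 and 14, B3galt1 18 and 5, and Chst13 9 and 1. Counts were higher with luteolin for Galnt14 (3 and 7), Chst8 (11 and 17), Gcnt7 (17 and 26) and Galntl6 (1 and 3). No test was made of these values.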
